A study of Mus musculus with 111 samples.

Results

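Sperm taken from the cauda epididymis were compared with whole testis in mice kept on the control diet. The read-count columns of cauda sperm and of testis on that diet were taken, which gave 5 sperm and 5 testis libraries of 111 in the study. The whole series covers liver, heart, testis, both ends of the epididymis (caput and cauda) and cauda sperm, 6 tissues in all, from mice fed 1 of 4 diets for 6 months. Small RNA was sequenced by OTTR-seq: the RNA ends are repaired with polynucleotide kinase, and an enzyme that copies RNA into DNA joins the adaptors on the way, with no ligation. Mice of both groups shared the control diet with 18% protein, which serves as the control for the low-protein diet with 10% protein. Fat gave 60% of the calories in the high-fat diet and 7.2% in its own control. The labels give no strain, genotype or age. Nor do they state whether each library is a different animal, so p-values measure only how far these libraries spread, which can be technical.

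Sperm are made in the testis, where germ cells pass through meiosis and then shed most of their cytoplasm and stop transcription. They finish maturing in the epididymis and are stored in its last segment, the cauda. Transfer RNAs (tRNAs) carry amino acids to the ribosome, small nucleolar RNAs (snoRNAs) guide chemical modification and processing of ribosomal RNA in the nucleolus, and piRNAs, cut from long precursors in germ cells, silence transposons. Small RNA of mature mouse sperm is known for its fragments of tRNA and ribosomal RNA. A read count cannot tell fewer cells of a type from less RNA per cell.

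After entries found to list the same reads under several names were reduced to 1 each, 714 features remained. Kept entries can still share sequence, and perhaps reads. The first 90 bases of n-R5s193 equal those of Gm25018, and the first 104 of Gm26461 equal those of Rn7s1. The 714 features hold 33.2%, 22.1%, 11.8%, 15.2% and 13.5% of the summed counts of the sperm libraries. In the testis libraries they hold 71.3%, 71.6%, 50.8%, 58.9% and 76.0%, so the reduction took most of the sperm counts and less of the testis counts. Of the counts removed, 76.5% to 90.3% in sperm and 32.1% to 40.2% in testis were on further entries of 5S ribosomal RNA. Every share and level below is relative to what was kept. Here a level is reads per 1000000 reads that the library has on these features (RPM). Sperm libraries held 35711, 21786, 23364, 28135 and 27017 such reads, and testis libraries held 626072, 168765, 105979, 210972 and 662424. The sperm libraries were all shallower than the testis libraries, and 3 reads, the limit that a count of 0 allows, correspond to 84.0 to 138 RPM in a sperm library and to 4.53 to 28.3 RPM in a testis library. Libraries within each tissue also stood apart. Sperm libraries 3 and 5 held 11.8% and 10.8% cytosolic tRNA, against 49.2%, 34.05% and 32.9% in the other sperm libraries, and testis libraries 3 and 4 held 37.9% and 59.6%, against 73.2%, 74.4% and 79.7% in the other testis libraries. The part of these differences in the results below was not tested beyond leaving out each library in turn. None of the 17 microRNA hairpins listed as markers of germ cells, epithelium, muscle, blood or liver is among the entries, so the purity of the sperm could not be checked with them. The numbers after S in the column names run from 29 to 33 for sperm and from 48 to 52 for testis. What they stand for is not given.

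The class makeup of the reads differed most in tRNA and in 5S ribosomal RNA (rRNA), the small RNA of the large ribosomal subunit. Cytosolic tRNAs made up 27.8 ± 16.3% of sperm reads and 65.0 ± 16.8% of testis reads (SD, n = 5 each; exact permutation test, adjusted p = 0.0444), and sperm library 1, with 49.2%, lay above testis library 3, with 37.9%. The 5S rRNA entries took 8.92%, 17.3%, 39.3%, 29.3% and 32.96% of the reads of the sperm libraries, against 0.733%, 0.763%, 2.11%, 1.60% and 0.714% in the testis libraries. Every sperm library was above every testis library (two-sided exact permutation test, adjusted p = 0.037, with 0.00794 the smallest unadjusted p that 5 against 5 libraries can reach). Of 14 classes, 5 differed in share at an adjusted p below 0.05, or 35.7%, with 4 higher in sperm (28.6%) and 1 lower (7.14%). Beside 5S rRNA, those higher in sperm were hairpins annotated as microRNA, with 2.94% to 10.0% in sperm and 0.176% to 1.31% in testis, the remaining small RNAs, with 0.781% to 6.95% in sperm and 0.0587% to 0.775% in testis, and the RNA components of RNase P and RNase MRP. In sperm, most of the hairpin reads and most reads of the remaining small RNAs lay on 1 entry each. Gm23935 averaged 57531 RPM, where hairpins took 6.80%, and Gm26461 averaged 23325 RPM, where the remaining small RNAs took 3.13%. Mitochondrial tRNAs (18.3% in sperm and 15.7% in testis, adjusted p = 0.635) and snoRNAs (4.84% and 9.82%, adjusted p = 0.384) did not pass the exact permutation test as classes. Nor did 7SL RNA, of the signal recognition particle, which Gm26461 matches at its start (5.69% and 2.38%, adjusted p = 0.319). The calls for cytosolic tRNA and for RNase P and MRP RNA were lost in 9 of the 10 sets that left out 1 library, and those for 5S rRNA, hairpins and the remaining small RNAs in the 5 sets that left out a testis library. The values of these 3 do not overlap between the tissues, so the groups stay apart in every such set although the adjusted p is above 0.05, and the 5S difference was 20.95 to 28.6 percentage points over the 10 sets. In groups of unequal size another split can differ by as much in size, so groups that stay apart need not reach the smallest p.

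**Figure D1:**
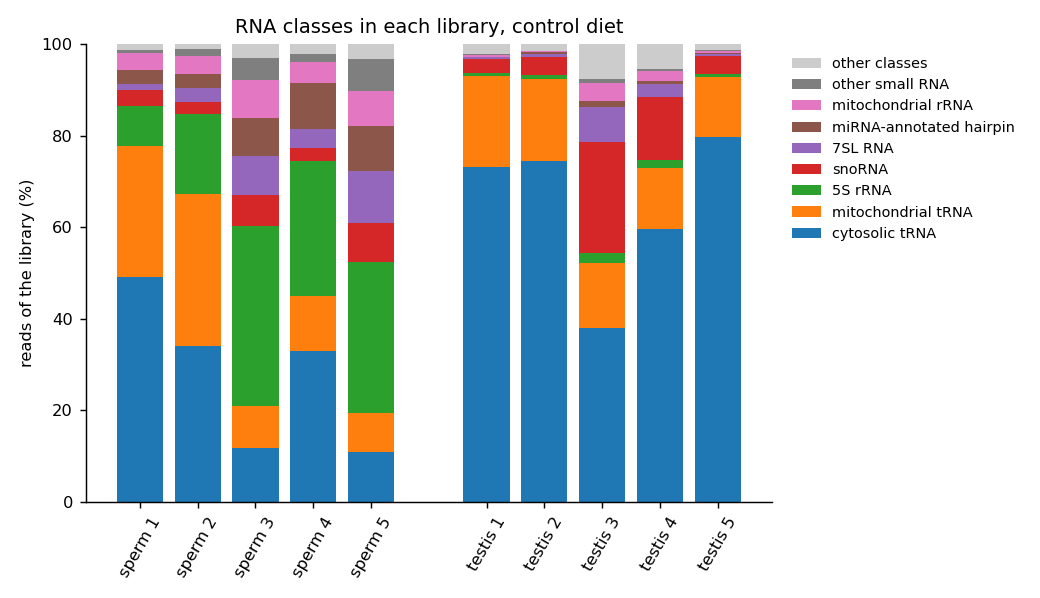
Share of reads (%, vertical axis) of each RNA class in the 5 sperm and the 5 testis libraries on the control diet, as stacked bars of 1 library each. The 5S rRNA band covers 8.92% to 39.3% in sperm and 0.714% to 2.11% in testis, and the cytosolic tRNA band is highest in testis library 5 (79.7%).

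Single features were compared with edgeR's quasi-likelihood test, and a feature is called here at a Benjamini-Hochberg adjusted p below 0.05 and a log2 fold change of at least 1 in size. Of 186 features with enough reads to be tested, 78 were called, or 41.9%, with 34 higher in sperm (18.3%) and 44 lower in sperm (23.7%). For 62 of the 186, or 33.3%, the RPM values of sperm and testis did not overlap. Fold changes are relative to TMM scaling, which sets most features near no change, so a fitted fold is not the ratio of the mean RPM values. With RLE scaling the median of all features moved by -0.44 and the split was 27 higher and 53 lower, and with plain totals it moved by -0.78 and the split was 24 higher and 70 lower. Rn7s1, mt-Rnr1 and CT010467.1 are among the calls that both of these scalings ended. With all entries kept, the median was -1.40 and the split 75 higher and 156 lower, and 10 of the 36 called features named by rule lost their calls, with log2 fold changes of -0.50 to 1.55 there. They are Rn7s1, Rn7sk, Rmrp, Rny1, Rnu1a1, tRNA-SeC-TCA-1, mt-tRNA-His-GTG-1, mt-Rnr1, mt-Rnr2 and CT010467.1. Single libraries moved the counts as well: without testis library 4, 48 features were called, 17 of them higher in sperm, and without testis library 5, 20 were higher. Without sperm library 3, 67 were lower, and without sperm library 5, 72.

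Among the features higher in sperm, 2 of the 3 tested 5S rRNA genes had the highest mean levels. Gm25018, the 5S gene with the most reads in sperm, had 45532, 87946, 199923, 149529 and 167635 RPM in the sperm libraries, against 3723, 3887, 10785, 8219 and 3667 RPM in the testis libraries. Every sperm library was higher than every testis library, and the fitted log2 fold change was 5.35 ± 0.70 (SE; edgeR, adjusted p = 4.41e-06). A shorter entry, n-R5s193, had 30243, 49527, 118901, 78230 and 103935 RPM in sperm, against 973, 1132, 1840, 1616 and 540 RPM in testis, and had the largest positive fold change of all tested features, 6.87 ± 0.75 on the log2 scale (edgeR, adjusted p = 6.91e-07). The third, Gm23647, ranged from 13441 to 74602 RPM in sperm and from 2607 to 8502 RPM in testis (4.36 ± 0.69; adjusted p = 6.87e-05). All 3 tested 5S features were called higher in sperm, and none of their ranges overlapped between the tissues. Over all 186 features, 18.3% were called higher in sperm and 33.3% did not overlap. The genes of 5S rRNA are near-identical copies, so how reads are shared out among them is uncertain. The 3 features may list some of the same reads, so they may not be separate results.

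Hairpins annotated as microRNA included one of the most abundant features of sperm, Gm23935. The class is named by its annotation alone, and whether its reads come from microRNA precursors was not tested. It had 26238, 24282, 65657, 88680 and 82800 RPM in the sperm libraries, against 470, 800, 3029, 1706 and 556 RPM in the testis libraries. The values do not overlap, and the log2 fold change was 6.39 ± 0.80 (edgeR, adjusted p = 4.12e-06). The entries Gm24270 and Gm24245 have the same sequence as Gm23935, and Gm24187 and Gm25911 differ from it by 1 and 2 bases, so reads cannot be assigned to one of these loci with certainty. Gm24187 carries the change G11A, and Gm25911 the change G14A and a missing base, with positions counted from 1 at the start of Gm23935. The 3 sequences are shown because their reads cannot be told apart, and capitals mark the substituted bases (GRCm38; Gm23935 at chr16:11144125-11144181 on the plus strand, Gm24187 at chr13:9834469-9834525 on the minus strand and Gm25911 at chr1:167340369-167340424 on the minus strand).
Gm23935: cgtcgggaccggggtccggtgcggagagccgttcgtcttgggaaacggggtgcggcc
Gm24187: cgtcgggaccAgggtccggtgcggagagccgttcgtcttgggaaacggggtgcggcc
Gm25911: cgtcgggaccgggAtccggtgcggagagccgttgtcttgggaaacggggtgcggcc
Of 3 hairpins tested, 2 were called higher, the other being Mir6236 (log2 fold change 3.56 ± 0.75; edgeR, adjusted p = 0.000719), and Mir5121 was not called (-1.09 ± 0.73; adjusted p = 0.248).

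Several structured RNAs of known function were called higher in sperm as well, though not every one measured. The 2 RNAs of the RNase P and RNase MRP complexes, which trim tRNA and rRNA precursors, were both called: Rpph1 had 168, 275, 428, 427 and 740 RPM in sperm, against 14.4, 17.8, 94.4, 42.7 and 18.1 RPM in testis (log2 fold change 4.43 ± 0.79; edgeR, adjusted p = 0.000147). Rmrp ranged from 812 to 2772 RPM in sperm and from 99.6 to 934 RPM in testis, with some overlap, and a log2 fold change of 3.002 ± 0.77. It lost its call without testis library 4 (adjusted p = 0.134) or 5 (0.108), with libraries thinned to the smallest depth (0.0608) and with all entries kept (log2 fold change 0.76, adjusted p = 0.368). The 7SK RNA, Rn7sk, which holds back the elongation factor P-TEFb, was higher in sperm at 3.15 ± 0.86 on the log2 scale, and lost its call without testis library 4 or 5 (adjusted p of 0.142 and 0.135), when thinned (0.0599) and with all entries kept (0.49, adjusted p = 0.576). Gm24447, whose first 241 bases equal those of Rn7sk, had 980, 826, 4622, 1848 and 5737 RPM in sperm, against 47.9, 17.8, 255, 104 and 34.7 RPM in testis, with no overlap and a log2 fold change of 5.96 ± 0.96 (edgeR, adjusted p = 6.93e-05). The Y RNA Rny1, a partner of the Ro protein, was called higher as well (3.40 ± 0.84), and lost its call without testis library 4 (adjusted p = 0.105) or 5 (adjusted p = 0.0611) and with all entries kept (1.03, adjusted p = 0.255). A second Y RNA, Rny3, had too few reads to be tested and averaged 79.8 ± 85.4 RPM in sperm and 74.3 ± 84.3 RPM in testis (SD, n = 5 each). The vault RNA Vaultrc5 was not tested either, at 0 to 666 RPM in sperm and 0 to 37.7 RPM in testis.

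The RNA of the signal recognition particle, 7SL, which guides nascent secreted proteins to the endoplasmic reticulum, was higher in sperm with less certainty, and the stretch of it that was read differed. The full-length gene Rn7s1 had 12517, 26026, 81792, 36787 and 110893 RPM in the sperm libraries, against 4190, 6755, 75345, 28359 and 3536 RPM in the testis libraries. Testis libraries 3 and 4 lay within the sperm range, and the log2 fold change of 2.20 ± 0.82 (edgeR, adjusted p = 0.0361) was no longer called without testis library 1, 2, 4 or 5 (adjusted p of 0.0609, 0.113, 0.451 and 0.459). The related entries Rn7s6, with 1092 to 4834 RPM in sperm and 72.5 to 491 RPM in testis, and Gm26461, whose first 104 bases equal those of Rn7s1, were called at 5.00 and 5.01 on the log2 scale. The part of Rn7s1 covered by the reads differed as well, as shown by the reads also listed under the shorter entry Gm47295, which matches bases 224 to 300. These made up 55.03%, 40.4%, 50.03%, 52.1% and 48.8% of the Rn7s1 reads in sperm, against 91.9%, 90.7%, 93.3%, 91.8% and 90.9% in testis. The groups do not overlap. Reads also listed under Gm47287, bases 143 to 212, took 2.74% to 14.3% in sperm and 0.635% to 1.93% in testis. This comparison was added after the values were seen, so no test is given. Reads of the 104 shared bases may be listed under both Rn7s1 and Gm26461. The Gm26461 call may then not be separate from the difference in the part of Rn7s1 covered, which was not tested.

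Spliceosomal RNAs, which cut introns out of pre-mRNA, did not all move together. The major-spliceosome RNA U1 (Rnu1a1) had 3528, 2111, 9545, 7393 and 5256 RPM in sperm, against 388, 415, 1406, 773 and 604 RPM in testis, without overlap (log2 fold change 3.86 ± 0.69; edgeR, adjusted p = 0.000147), and was not called with all entries kept (1.55, adjusted p = 0.0752). U11 (Rnu11), of the minor spliceosome, was also higher without overlap, at 4.12 ± 0.71 (adjusted p = 0.000144). The U2 gene Gm23971 had 2744, 3902, 3638, 4798 and 9105 RPM in sperm, against 10347, 8977, 23731, 25771 and 6386 RPM in testis, and did not pass the test (-0.74 ± 0.59; adjusted p = 0.327). It was called lower in sperm with plain totals (-1.67, adjusted p = 0.0315), with all 6 tissues in 1 fit (-1.18, adjusted p = 0.0306) and with all entries kept (-3.08, adjusted p = 3.15e-05). The U5 gene Gm25313 and the U6 gene Gm25709 had too few reads to be tested. Gm25313 was at 45.9 to 370 RPM in sperm and 0 to 10.6 RPM in testis, and Gm25709 at 0 to 555 RPM in sperm and 66.1 to 180.1 RPM in testis.

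**Figure D2:**
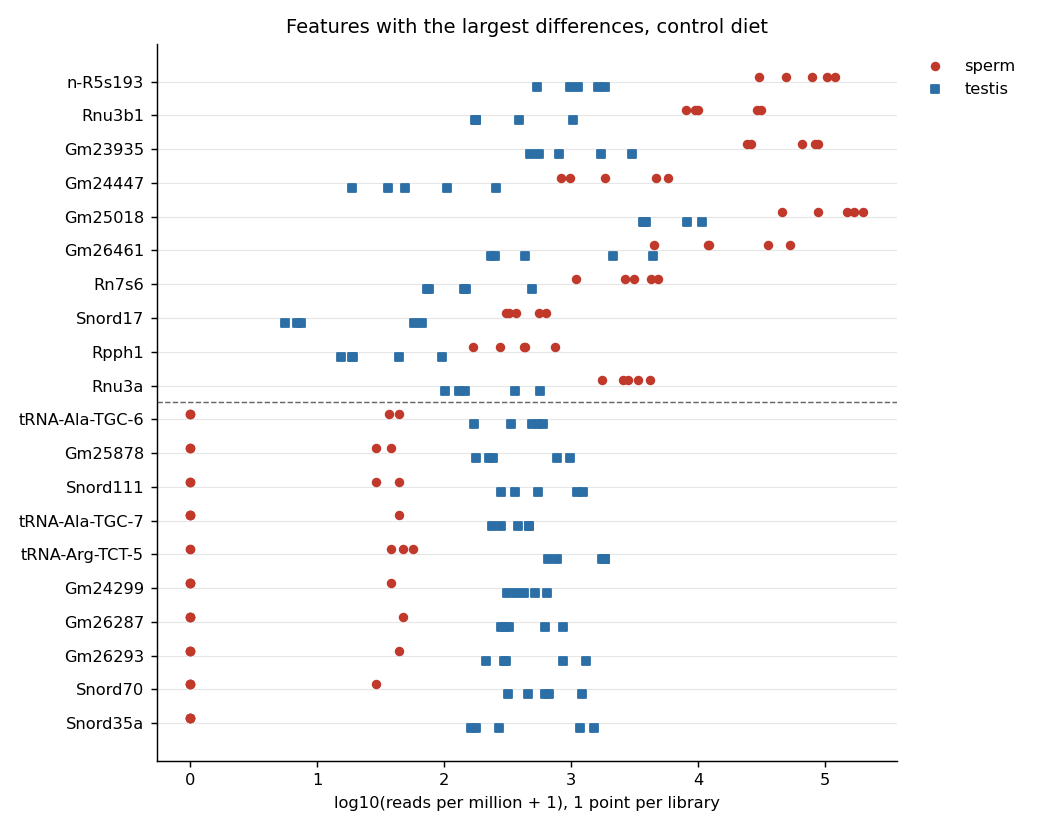
Level of the 10 highest and 10 lowest of the called features, by log2 fold change, whose RPM values do not overlap, as log10(RPM + 1) on the horizontal axis, with 1 point per library. For the features above the dashed line every sperm point lies right of every testis point; below it, the sperm points lie at 0 or at 45.9 RPM and less, apart from sperm library 1 of tRNA-Arg-TCT-5 at 56 RPM.

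SnoRNAs split by length. Box C/D snoRNAs guide ribose methylation and box H/ACA snoRNAs guide pseudouridine formation, and the first kind is usually the shorter. Entries under 100 bases were more often lower than higher in sperm: of 59 tested, which run from 67 to 94 bases, 27 were called lower and 1 higher (Gm26224), and their median difference on the log2 scale was -1.84. The 8 tested snoRNAs of 100 bases or more, from 127 to 238 bases, had 6 called higher and none called lower, with a median of 3.54. The limit of 100 bases was chosen after the values were seen, so these counts and medians are a description. Of 198 kept snoRNAs, 67 had enough reads to be tested. The filter takes reads of either tissue, so a snoRNA can enter through the tissue where it is high. These counts and medians can depend on that. Over all 186 features the median is -0.24, with 23.7% called lower and 18.3% higher. The short snoRNAs gave 45.8% lower and 1.69% higher, and 75% of the long ones were called higher. Without testis library 3, 11 of the short snoRNAs were called lower in place of 27.

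Snord70, which lies within Nop58 (a core protein of the box C/D particle), had 28, 0, 0, 0 and 0 RPM in the sperm libraries, against 316, 616, 1217, 664 and 459 RPM in the testis libraries. In sperm this was 1 read in all 5 libraries together, against 875 reads in testis, so the ratio of the pooled levels, testis over sperm, was 67.1 with a counting interval of 12.0 to 2652. The interval covers counting error only. The fitted log2 fold change was -5.77 ± 1.04 (edgeR, adjusted p = 0.000147). Snord35a was at 0 in every sperm library and had 723 reads in testis, at least 18.5-fold lower in sperm against a floor of 3 reads over the sperm group. Snord111, with 2 reads in sperm and 1000 in testis, had 28, 0, 42.8, 0 and 0 RPM, against 361, 278, 1236, 1114 and 545 RPM in testis (log2 fold change -4.82 ± 0.98). Every sperm library was below every testis library for these 3. The other 4 snoRNAs among the 10 lowest, each with 1 or 2 reads in sperm, were Gm26293 and Gm26287 of Nop58 (-5.45 and -5.19), Gm24299 of Taf1d (-5.14) and Gm25878 of Zfas1 (-4.26).

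The long snoRNAs went the other way. Rnu3b1 is a gene of U3, a snoRNA needed for the cutting of the rRNA precursor. It had 9913, 8079, 31330, 9526 and 29315 RPM in the sperm libraries, against 176, 178, 1038, 389 and 175 RPM in the testis libraries (log2 fold change 6.46 ± 0.84, edgeR, adjusted p = 4.41e-06). The other U3 gene, Rnu3a, was called at 4.37 ± 0.74. The counts of Rnu3a and Rnu3b1 were even in each of the 111 libraries, and each name has 2 annotated loci, so a read may have been counted at both. A level would then be too high by the same factor in both tissues and the fold would be unaffected. Snord17, a 238-base member of the box C/D family, had 308, 367, 556, 320 and 629 RPM in sperm, against 6.39, 5.93, 66.1, 56.9 and 4.53 RPM in testis (log2 fold change 4.98 ± 0.87; edgeR, adjusted p = 0.000144), with no overlap. Snora28 was at 142 to 185 RPM in sperm and at 0 to 37.9 RPM in testis (log2 fold change 3.82 ± 0.73). Snora68 and Snora7a, also over the limit, were not called. Entries of 100 bases or more gave 50.99%, 54.4%, 62.7%, 63.6% and 48.5% of the snoRNA reads in the sperm libraries, against 5.60%, 3.94%, 3.03%, 3.76% and 3.61% in the testis libraries. The groups are far apart. In sperm most of these reads were of U3: Rnu3b1 averaged 17632 RPM and Rnu3a 2918 RPM, against 391 and 260 RPM in testis. A double count of U3 reads would raise this share, so it describes U3 more than long snoRNAs in general. The share without U3 was not tested.

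Snord111 and Snord17 are printed because they stand on either side of the length split while both hold the motif pair TGATGA and CTGA that is known from box C/D snoRNAs. The capitals mark TGATGA and the last CTGA of each sequence, read 5′ to 3′ on the strand of the gene (GRCm38; Snord111 at chr8:110838528-110838616 and Snord17 at chr2:144265979-144266216, both on the minus strand). A search for TGATGA followed by CTGA, on the gene's strand alone and with no overlap of the motifs, found both in 45 of the 59 shorter tested snoRNAs (76.3%) and in 3 of the 8 longer ones (37.5%). The match describes the sequence only.
Snord111: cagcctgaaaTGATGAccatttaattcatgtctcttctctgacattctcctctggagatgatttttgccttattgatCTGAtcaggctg
Snord17: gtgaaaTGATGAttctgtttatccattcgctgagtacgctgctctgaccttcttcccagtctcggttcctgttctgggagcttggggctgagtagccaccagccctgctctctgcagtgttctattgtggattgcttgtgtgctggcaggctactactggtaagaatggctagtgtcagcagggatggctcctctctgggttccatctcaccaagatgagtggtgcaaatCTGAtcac

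Outside the snoRNAs a length split could not be read, since all but 2 of the 17 other annotated RNAs were at or over 100 bases. Of the 15 that were, 14 were called higher and none lower, and of the 2 under it Gm23935 was called higher and Mir5121 was not called. Among all annotated RNAs of 100 bases or more, from 109 to 338 bases, 20 of 23 were called higher in sperm and none lower. This leaves out the ribosomal RNA of mitochondria and the large rRNA. The share called higher was 87%, against 18.3% of all 186 features. Without testis library 4, 12 were called higher, and without testis library 5, 13. The 3 not called were the U2 gene Gm23971, Snora68 and Snora7a. Of 61 tested annotated RNAs under 100 bases, 59 of them snoRNAs, 2 were called higher (Gm23935 and Gm26224) and 27 lower, and all 27 are snoRNAs. The share called lower was 44.3%, against 23.7% of all 186 features. In both length groups an RNA can enter the test through the tissue where it is high, so these counts can depend on the filter. Spearman's rho between annotated length and log2 fold change was 0.43 over the 84 annotated features, 0.12 within the 67 snoRNAs and -0.27 within the short snoRNAs. The features share their libraries and scaling, so this is a description with no p. The column names end in gt65, which the sources used here do not explain. Were it a limit on read length, it would bear on these lengths, and this was not tested.

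**Figure D3:**
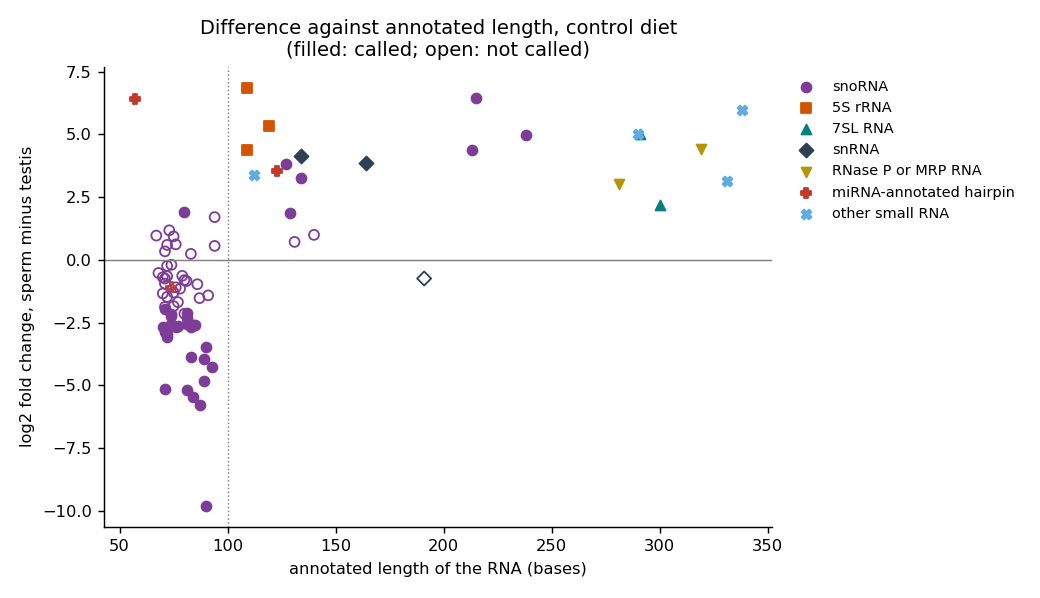
Log2 fold change of sperm minus testis (vertical axis) against annotated length in bases (horizontal axis) for annotated RNAs, filled where called. The dotted line marks 100 bases, right of which all filled points lie above 0.

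SnoRNAs sit in introns of host genes, and 62 of 63 tested snoRNAs with a single annotated locus lie in a same-strand host, over 39 hosts. Hosts differed in how their snoRNAs changed. All 4 snoRNAs of Nop58 were called lower in sperm, from -5.77 to -2.59 on the log2 scale, and all 3 of Zfas1, a long non-coding RNA, from -4.26 to -3.49. None of the 3 of Snhg1, another long non-coding RNA, was called, and of the 4 in Gas5 1 was called higher (Gm26224) and none lower. Over all 186 features 23.7% were called lower and 18.3% higher, and 45.8% of the short snoRNAs were called lower. The snoRNAs of a host share a transcript, so they are not independent of each other, and no test of the difference between hosts was made.

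Cytosolic tRNAs were lower as a share of all reads, but single tRNAs differed widely. Of 77 tested, 16 were called lower in sperm and 5 higher, and their median difference on the log2 scale was -0.29, close to the -0.24 of all features. The share called lower, 20.8%, was near the 23.7% of all features. The tRNA for aspartate was the most abundant feature in testis: tRNA-Asp-GTC-1 had 95489, 47416, 11642, 35010 and 9216 RPM in the sperm libraries, against 176574, 166142, 96642, 186428 and 199997 RPM in the testis libraries. Every sperm library was lower than every testis library, though sperm libraries 3 and 5 lay well under sperm library 1. The log2 fold change was -1.53 ± 0.58 (edgeR, adjusted p = 0.0375), and 7 of the 10 fits that left out 1 library lost the call (adjusted p up to 0.1).

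The tRNA for glutamate with a CTC anticodon, whose 5′ fragment is among the best known small RNAs of mouse sperm, was the clearest of the abundant ones. tRNA-Glu-CTC-1 had 3248, 3351, 2825, 2701 and 3849 RPM in sperm, against 14642, 30077, 91254, 89818 and 29711 RPM in testis (log2 fold change -3.16 ± 0.61; edgeR, adjusted p = 0.000308). The sperm libraries were alike and the testis libraries differed, with testis libraries 3 and 4 the highest. The entries of the tRNA for glutamate with a TTC anticodon, tRNA-Glu-TTC-1 and tRNA-Glu-TTC-2, were not called (-0.44 ± 0.51 and -0.50 ± 0.54). The entries do not separate fragments from whole tRNAs, and whether fragments were counted at all is not given. Rarer tRNAs were the most reduced: tRNA-Arg-TCT-5 had 56, 45.9, 0, 0 and 37.0 RPM in sperm, against 1856, 1736, 651, 773 and 1857 RPM in testis (log2 fold change -4.97 ± 0.88; edgeR, adjusted p = 0.000147). Of the 4 tested alanine entries 3, all with a TGC anticodon, were called lower, and the fourth, tRNA-Ala-AGC-4, was not (-0.03 ± 0.91). Among these, tRNA-Ala-TGC-7 rests on 1 read in sperm, against 709 in testis, and tRNA-Ala-TGC-6 (-4.12 ± 1.003) on 2, against 889 in testis. The glutamine tRNA tRNA-Gln-CTG-2, one of the 5 most abundant in testis, had 27051, 26669, 1798, 13400 and 1555 RPM in sperm, against 77245, 79697, 20608, 50173 and 78604 RPM in testis. Its groups overlap and it was not called (-1.63 ± 0.69; edgeR, adjusted p = 0.0616), but 10 of its 19 alternatives called it lower, RLE scaling (-2.03) and plain totals (-2.14) among them. Of the fixed list, tRNA-Lys-CTT-3, tRNA-Gly-GCC-2, tRNA-Gly-CCC-1, tRNA-Val-CAC-2, tRNA-His-GTG-2 and tRNA-iMet-CAT-1 were not called, with log2 fold changes of -0.22 to 0.79. Near-identical copies of tRNA genes make the values of single tRNA entries uncertain.

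The tRNAs called higher in sperm were those for selenocysteine and leucine. tRNA-SeC-TCA-1, which reads a recoded stop codon, had 3920, 3167, 12198, 8317 and 12659 RPM in sperm, against 604, 1357, 944, 1858 and 1312 RPM in testis, without overlap (log2 fold change 3.63 ± 0.67; edgeR, adjusted p = 0.000205). With all entries kept it was not called (1.26, adjusted p = 0.145). tRNA-Leu-AAG-2 had 3444, 1193, 2397, 1599 and 2924 RPM in sperm, against 244, 237, 170, 327 and 377 RPM in testis (3.83 ± 0.69; adjusted p = 0.000147), while its near relative tRNA-Leu-AAG-1 was not called (1.26 ± 0.62). Of 10 tested leucine entries 4 were called higher and none lower. Leucine, serine and selenocysteine tRNAs have a long variable arm and are the longest cytosolic tRNAs. Of their 20 tested entries 5 were called higher (25%, near the 18.3% of all features) and none lower. Of the 57 other cytosolic tRNAs none was called higher and 16 lower (28.1%, near the 23.7% of all features). The summed share of cytosolic tRNA reads from leucine, serine and selenocysteine tRNAs was 6.996%, 6.69%, 23.4%, 6.12% and 27.1% in the sperm libraries. In the testis libraries it was 4.48%, 3.29%, 1.44%, 2.75% and 5.53%. Sperm libraries 3 and 5 stood out, and no values overlap. This grouping was chosen after the values were seen and is not tested. Serine alone had no called entry.

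**Figure D4:**
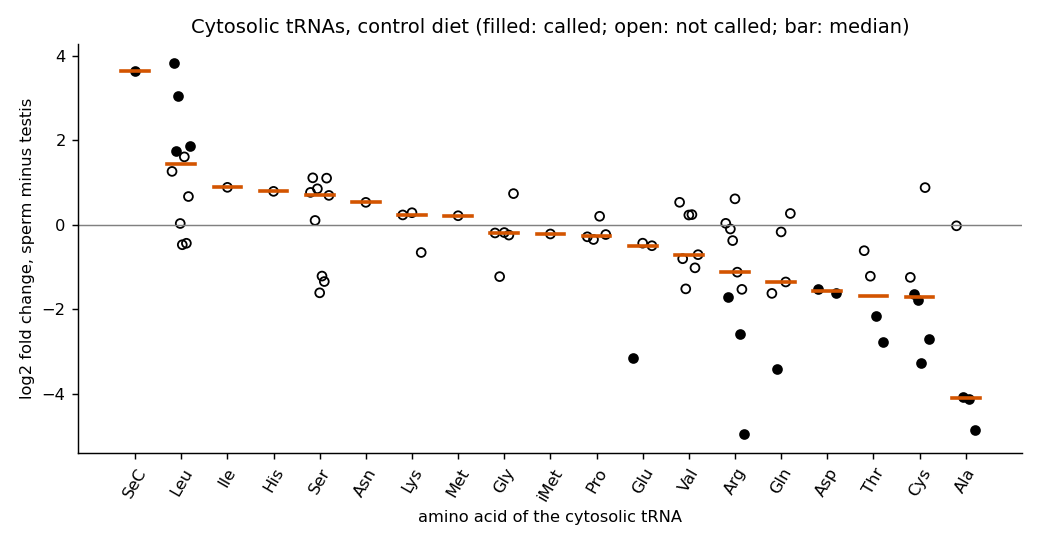
Log2 fold change of sperm minus testis (vertical axis) of each tested cytosolic tRNA, grouped by amino acid along the horizontal axis and ordered by median (orange bar). Filled points are called; they lie above 0 for SeC and Leu and below 0 for Glu, Arg, Gln, Asp, Thr, Cys and Ala.

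As shares of the cytosolic tRNA reads, 8 of 22 amino acids differed at an adjusted p below 0.05 in the exact permutation test, or 36.4%. Asparagine, histidine, leucine, lysine and selenocysteine were higher in sperm (5, or 22.7%), and aspartate, cysteine and threonine lower (3, or 13.6%). Lysine tRNAs made up 16.2%, 10.9%, 19.9%, 20.1% and 17.3% of the cytosolic tRNA reads in sperm, against 10.1%, 10.1%, 7.59%, 8.34% and 8.03% in testis, although no single lysine entry was called by RPM. The groups do not overlap, and a share can rise because others fall. Aspartate tRNAs took 9.81% to 22.6% in sperm and 26.5% to 36.7% in testis (adjusted p = 0.0249). Of 47 anticodons, 18 differed (38.3%), 11 higher (23.4%) and 7 lower (14.9%) in sperm. With a sperm library left out, 7 to 9 amino acids and 12 to 16 anticodons differed, and with any 1 testis library left out, none did. Since 7 of the 8 amino acids and 13 of the 18 anticodons do not overlap between the tissues, their groups stay apart in each of those sets, although the adjusted p is above 0.05. With unequal groups, the test on absolute differences can count a further split as equally extreme, so separated groups need not reach the smallest p.

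In mitochondria, the balance of the tRNAs changed more than their total. Mitochondrial histidine tRNA had 66618, 69724, 30560, 26870 and 26132 RPM in sperm, against 18110, 14855, 10549, 16941 and 13206 RPM in testis, without overlap (mt-tRNA-His-GTG-1, log2 fold change 2.21 ± 0.53; edgeR, adjusted p = 0.00217). The call was lost with no filter on low counts (1.33, adjusted p = 0.139) and with all entries kept (0.54, adjusted p = 0.395). Of 20 tested mitochondrial tRNAs, 4 were called higher and 1 lower, with a median of 0.89. The share called higher, 20%, was near the 18.3% of all features. As a share of mitochondrial tRNA reads, histidine took 26.1 ± 5.53% in sperm and 9.53 ± 2.04% in testis, and valine 21.4 ± 6.71% in sperm and 38.4 ± 3.63% in testis (exact permutation test, adjusted p = 0.0249 for each). Asparagine, cysteine, glutamine and alanine were the other tRNAs with a higher share, and serine TGA and tryptophan those with a lower one, 8 of 22 or 36.4% in all (5 higher, 22.7%, and 3 lower, 13.6%). Without testis library 2 or 3, 4 differed, and without testis library 5, 5. The level of mt-tRNA-Val-TAC-1 was not called, with a fold change near 0 that changed sign with the scaling (0.10 with TMM, -0.35 with RLE and -0.48 with plain totals). mt-tRNA-Ser-TGA-1 had 252, 505, 171, 142 and 37.0 RPM in sperm, against 497, 462, 5454, 2432 and 408 RPM in testis (-2.33 ± 0.83; edgeR, adjusted p = 0.0293), and was not called without testis library 3 (adjusted p = 0.1) or without sperm library 1, 4 or 5 (adjusted p of 0.0617, 0.0532 and 0.0682). The pair is printed because it gives the called mitochondrial tRNA with the highest and the one with the lowest fold change, with the anticodon in capitals (GRCm38; mt-Th at chrM:11546-11612 on the plus strand and mt-Ts1 at chrM:6870-6938 on the minus strand, which are the gene names of the histidine and serine TGA tRNAs).
mt-Th: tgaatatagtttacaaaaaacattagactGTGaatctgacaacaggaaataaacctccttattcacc
mt-Ts1: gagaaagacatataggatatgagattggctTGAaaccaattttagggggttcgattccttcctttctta

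The mitochondrial rRNAs, which form the mitochondrial ribosome, were also called higher: mt-Rnr2 had 33379, 34196, 73318, 39915 and 65329 RPM in sperm, against 3199, 2169, 31034, 15893 and 4038 RPM in testis (log2 fold change 3.07 ± 0.72; edgeR, adjusted p = 0.00183). No values overlap, but the call was lost without testis library 4 (2.20, adjusted p = 0.112) or 5 (1.88, adjusted p = 0.0886) and with all entries kept (0.64, adjusted p = 0.324). For mt-Rnr1 (1.97 ± 0.71, adjusted p = 0.0298), which overlaps, leaving out testis library 1, 2, 4 or 5 ended the call (adjusted p of 0.0715, 0.0975, 0.336 and 0.459). The large rRNA entry CT010467.1 was called higher with overlap (2.63 ± 0.93) and lost its call without testis library 2, 4 or 5 (adjusted p of 0.0876, 0.317 and 0.337).

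Most piRNA precursors had too few reads to be tested singly. The filter takes reads of either tissue, so few reads in sperm alone do not keep a precursor out of the test. Of 248 precursors, 105 had no read in any sperm library, and sperm held 558 of their reads in all, against 22198 in testis. These are raw reads, out of 136013 kept reads in sperm and 1774212 in testis. The lower depth of sperm enters these counts and every count of precursors with no read in sperm. As pooled shares, the precursors took 0.410% of the reads in sperm and 1.25% in testis. The only precursor that entered the fit did not pass (edgeR, log2 fold change -2.54, adjusted p = 0.055). The precursors differ by how they are named. The 131 named by chromosome band took 0.0868%, 0.0597%, 0.214%, 0.0604% and 0.163% of the reads in the sperm libraries, against 0.960%, 0.341%, 3.92%, 2.33% and 0.556% in the testis libraries, and 84 of them had no read in sperm. Every sperm library was below every testis library, and testis libraries 3 and 4 were highest. The 117 named by a host gene took 0.154% to 0.485% in sperm and 0.0794% to 0.757% in testis, and 21 had no read in sperm. As this split was made after the values were seen, no test is given. The precursor 9-qC-31469.1 had no read in sperm and 546 in testis, at least 13.95-fold lower in sperm. Counts of 119 of the 131 band-named precursors were even in all 111 libraries, so a level may count each read at 2 loci. These precursors are among the markers of germ cells from meiosis on.

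Sperm libraries showed fewer different features at equal depth, and this was not spread evenly over the classes. Thinned to 21786 reads, a sperm library showed a read of 334.8 ± 20.8 features and a testis library of 401.6 ± 64.4 (SD, n = 5 each; exact permutation test, p = 0.0476), and the ranges, 314 to 358 and 346 to 494, overlap. Thinned sperm libraries showed 12, 7, 21, 8 and 17 band-named piRNA precursors, against 74, 47, 116, 104 and 59 in testis. Host-named precursors came to 29 to 57 in sperm and 14 to 63 in testis, and snoRNAs to 98 to 136 and 101 to 145. Cytosolic tRNAs came to 74 to 108 in sperm and 107 to 129 in testis. Without thinning, the means over all features were 352.2 in sperm and 627.4 in testis. With at least 3 reads asked for, thinned libraries held 182.2 ± 20.1 features in sperm and 249.4 ± 45.2 in testis (exact permutation test, p = 0.00794, the smallest possible).

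The same tissues on the other diets gave libraries that the control comparison did not use. Of the 34 features higher in sperm on the control diet, 30 could be tested on the low-protein diet, 31 on the control of the high-fat diet and 33 on the high-fat diet. Of these, 28, 27 and 30 were called higher there in the same order. Of the 44 lower, 41, 35 and 36 could be tested, and 34, 33 and 32 were called lower. None was called in the opposite direction, and every one tested had the same sign. Over all features tested on those diets, 21%, 22.1% and 28.2% were called higher in sperm and 33.5%, 53% and 37.6% lower, which makes 54.5%, 75.1% and 65.7% in all. Of the 63 features called on the control diet and tested on all 4 diets, 49 were called in the same direction on all. The n-R5s193 log2 fold change was 6.36, 6.26 and 6.61 on these diets, in the same order, and that of Gm23935 was 6.46, 5.59 and 6.33. Among short snoRNAs also tested on the control diet, 35 of 59, 40 of 57 and 33 of 58 were called lower in sperm on these diets. Among all features also tested on the control diet, 46 of 173, 60 of 150 and 43 of 150 were called lower. The share of snoRNA reads from entries of 100 bases or more did not overlap between sperm and testis on any diet.

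**Figure D5:**
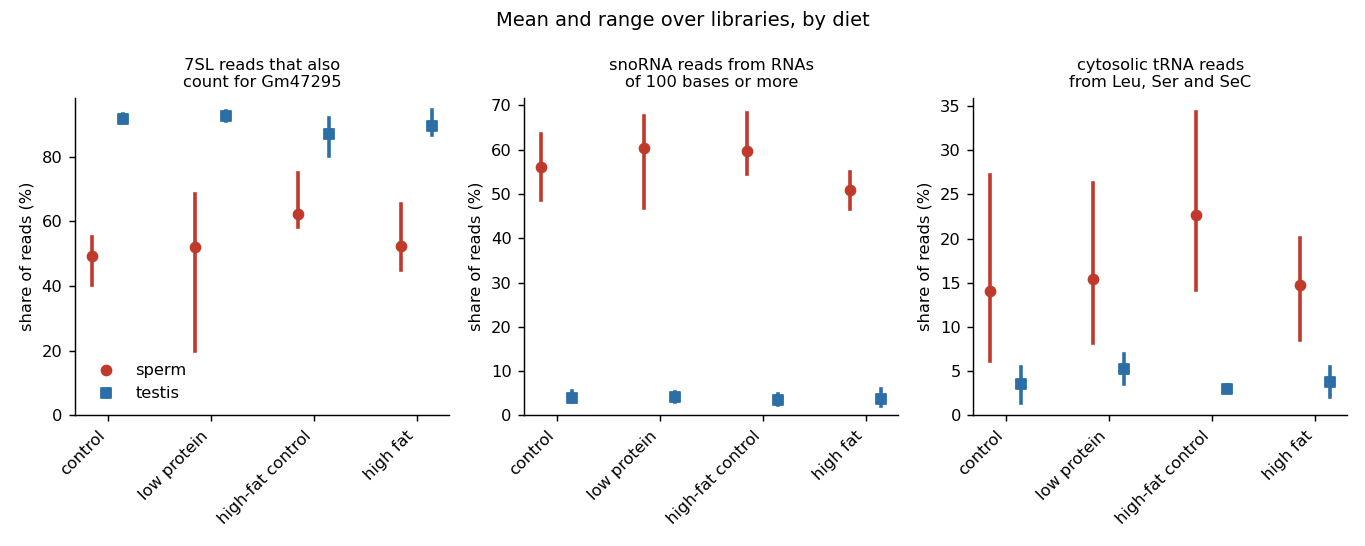
Mean (point) and range (line) over libraries of 3 shares of reads (%, vertical axes) in sperm (red circles) and testis (blue squares) on the 4 diets. In sperm 49.3% of the 7SL reads on the control diet also count for Gm47295, against 91.7% in testis, and the sperm and testis ranges do not overlap in any panel.

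A direct test of whether the difference between sperm and testis varies among the 4 diets called 2 of 340 features, or 0.588%, tRNA-Thr-TGT-2 and Snora81 (edgeR interaction, adjusted p = 0.0460 for each), with 79 at an unadjusted p below 0.05. With RLE scaling and with plain totals none was called (11 and 23 at an unadjusted p below 0.05).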

How the data were processed

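The authors deposited raw counts of reads for each small RNA name, not normalized. The submitters' processing notes name cutadapt, DESeq2 and the build mm10. Not given in the sources used here are the aligner and the counting rule, whether strand was used, and what the ending gt65 of the column names means. Entries with near-identical sequence, nested entries, second names and entries under 50 reads in total were removed, which left 714 of 1268 entries, with 49.9% of the summed counts (11.8% to 33.2% in sperm and 50.8% to 76.0% in testis). Annotation and sequences came from GENCODE M21 (GRCm38, the assembly of mm10), in which 507 of 512 gene names were found. Cytosolic tRNA and piRNA precursor sequences were not used here.

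Counts were tested with edgeR 4.0.16 (filterByExpr, TMM, robust quasi-likelihood) in R 4.3.3, adjusted over all features tested, and called at an adjusted p below 0.05 and a log2 fold change of at least 1. Shares per library were compared by exact permutation of the 252 splits of 10 libraries (scipy 1.17.1), adjusted within each family. DESeq2 1.42.0 was an alternative. The fits were checked on simulated counts. The text names the 10 highest and 10 lowest fold changes among called features without overlap and with at least 100 RPM in a group, the 5 most abundant in each tissue and a fixed list of RNAs. tRNA-Ala-TGC-5, tRNA-Ala-AGC-4, tRNA-Glu-TTC, tRNA-Leu-AAG-1, Mir6236, Mir5121, Snora28, Snora68, Snora7a, Gm26224 and 9-qC-31469.1 were added after their values were seen, and the members and lists were chosen with earlier results of these data known. Libraries of the same replicate number were not treated as paired. Reads without molecular identifiers are not independent molecules, so intervals and limits cover counting error only.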

Additional observations from a re-analysis of the deposited data

Results flagged for a closer look

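In 12 of 140 groups of 5 libraries, the highest library lay farther from the rest than Dixon's critical value of 0.71 allows; chance alone flags about 1 in 20 groups. In sperm, Rmrp was at 2772 RPM in library 4, against a median of 1130 RPM in the others. Entries with a name outside the annotation took 0.0666% of the reads of sperm library 5. Single reads account for the flags of Snord70 (28 RPM, sperm library 1), Gm26293 (42.8 RPM, library 3), Gm26287 (45.9 RPM, library 2), Gm24299 (37.0 RPM, library 5) and tRNA-Ala-TGC-7 (42.8 RPM, library 3), with 0 in the other 4 sperm libraries. In testis these were library 3 for Rn7s6 (490.7 RPM, the others from 72.5 to 147 RPM), for Rnu3b1 (1038 RPM), for Rny1 (471.8 RPM) and for Vaultrc5 (37.7 RPM). The same library also gave the highest share of host-named piRNA precursors (0.757% of reads).

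The difference between sperm and testis varied among diets for tRNA-Thr-TGT-2 and Snora81 (edgeR interaction, adjusted p = 0.0460 for each). For tRNA-Thr-TGT-2 the log2 fold change was -2.16 on the control diet, -0.84 with low protein and -0.71 with high fat. On the high-fat control diet it had too few reads for that diet's own fit, and its RPM averaged 250.1 in sperm and 251.7 in testis. The RPM of Snora81 averaged 61.8 in sperm and 26.7 in testis on the control diet, and 338 in sperm and 16.5 in testis on the high-fat control diet. Both calls ended with RLE factors and with plain totals (adjusted p of 0.951 and 0.640).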

How the results depend on the processing

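Of 36 named features that were called, 24 kept their call in every alternative that tested them, and 3 changed sign in one of them. The count of called features was 78. It was 289 with no filter on low counts (86 higher, 203 lower), 153 with all 6 tissues of the control diet in 1 fit (52, 101), 314 with all libraries (99, 215), 42 after thinning to the smallest depth (20, 22) and 231 with all entries kept (75, 156). Lower calls came to 70 with plain totals. The fit with a replicate block called 81, without mt-tRNA-Ser-TGA-1 (adjusted p = 0.0627). Leaving out 1 library gave 48 to 108 in all, 17 to 39 higher and 31 to 72 lower. Same-number libraries correlated from -0.65 to 0.59, with 3 of 5 pairs over 0.1, and 1 sperm library correlated best with its own number, so the numbers do not pair the libraries.

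The median over all features, -0.24, was -1.02 with plain totals, -1.12 with no filter, -1.35 with all libraries and -1.40 with all entries kept. For cytosolic tRNAs it was -0.998, -1.75 and -2.06 with plain totals, no filter and all entries kept, and for mitochondrial tRNAs 0.25, 0.043 and -0.77. For snoRNAs it was -2.43 with plain totals, -4.14 with all entries kept, and -2.32 to -0.73 when 1 library was left out.

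With all entries kept, the sperm minus testis difference in share (percentage points) was -0.971 for 7SL RNA, 0.0127 for RNase P or MRP RNA, -0.00408 for large rRNA, 2.02 for hairpins, -12.0 for mitochondrial tRNA, 0.355 for other small RNA, -1.56 for piRNA precursors, -0.0109 for scaRNA, -5.26 for snRNA, -5.05 for snoRNA and -0.0452 for names outside the annotation. Leaving out 1 library gave 20.95 to 28.6 for 5S rRNA, 0.132 to 0.189 for RNase P or MRP RNA, -44.0 to -33.0 for cytosolic tRNA, 5.49 to 7.25 for hairpins, -1.12 to 5.08 for mitochondrial tRNA, 1.92 to 3.46 for other small RNA and -0.487 to 0.00564 for snRNA. It also gave 5.68 to 8.56 for the 7SL reads also under Gm47287, 7.31 to 12.6 for leucine, serine and selenocysteine tRNAs and -1.83 to -0.931 for band-named piRNA precursors. Differing amino acids came to 0 to 9, anticodons to 0 to 16 and mitochondrial tRNAs to 4 to 7, with 0 for the first 2 whenever a testis library was left out. The diet interaction called 0 with RLE factors and 0 with plain totals. Lower snoRNAs under 100 bases came to 41 with plain totals and to 11 to 38 with 1 library left out, and higher RNAs of 100 bases or more to 12 to 27.

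Single log2 fold changes that changed sign were Rn7s1 (-0.49), mt-Rnr1 (-0.50) and CT010467.1 (-0.046), all with all entries kept. mt-tRNA-Val-TAC-1 was -0.35 with RLE factors and DESeq2, -0.48 with plain totals, -0.69 with no filter, -0.16 with the replicate block, -0.11 with 6 tissues, -0.59 with all libraries, -0.17 thinned, -1.40 with all entries and -0.40 to 0.36 with 1 library left out. tRNA-Lys-CTT-3 was -0.076, -0.34, -0.56, -0.075 and -1.30 with RLE factors, plain totals, no filter, DESeq2 and all entries, and -0.12 to 0.47 with 1 library left out. tRNA-Val-CAC-2 was -0.091, -0.31, -0.71, -0.091 and -1.16 in the same order, and -0.22 to 0.51. tRNA-Gly-CCC-1 was 0.45 with all libraries and -0.66 to 0.014 with 1 left out, tRNA-Gly-GCC-2 was -0.66 to 0.068, tRNA-His-GTG-2 was -0.0093 with no filter and -0.73 with all entries, and tRNA-iMet-CAT-1 was 0.069 with the replicate block and 0.095 with all libraries. The causes were not tested. Leaving out libraries under 5000 reads was not run, because none of these 10 is. Depth limits sperm most: a feature absent there can lie anywhere under 84.0 to 138 RPM.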

Other observations

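The cauda epididymis of the same diet, which surrounds these sperm, gave levels for comparison. Its 7SL level was 196461 ± 50200 RPM for Rn7s1 (SD, n = 5), above the 53603 RPM of sperm and the 23637 RPM of testis. Gm26461 was at 186810 ± 51727 RPM there, against 23325 RPM in sperm and 1484 RPM in testis. Rpph1 was also higher in the cauda (408 RPM in sperm, 551.6 ± 468.8 RPM in the cauda). Others of the features highest in sperm were lower there: Gm25018 averaged 130113 RPM in sperm and 26058 ± 12440 RPM in the cauda, and Gm23935 averaged 57531 RPM in sperm and 16527 ± 19516 RPM in the cauda. tRNA-SeC-TCA-1 averaged 8052 RPM in sperm and 567 ± 242 RPM in the cauda. The U2 gene Gm23971 averaged 4838 RPM in sperm, 15042 RPM in testis and 33041 ± 10187 RPM in the cauda. These are levels with no test.

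A pair of mitochondrial tRNAs have counts that disagree between their names over the 111 libraries: the arginine tRNA mt-tRNA-Arg-TCG-1 has 468611 reads where mt-Tr lists 25789. The serine tRNA mt-tRNA-Ser-GCT-1 has 140 where mt-Ts2 lists 386. Their values are uncertain. Neither is named in a result above, but their reads enter the mitochondrial tRNA class and the total behind each mitochondrial tRNA share. On the control diet, mt-tRNA-Arg-TCG-1 averaged 2.80% of mitochondrial tRNA reads in sperm and 5.24% in testis. The shares with the counts under the other names were not tested.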
